A study of Caenorhabditis elegans with 2 samples.

Results

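The fbxa, fbxb and fbxc families hold most of the F-box genes of the nematode Caenorhabditis elegans, and the data give the sites of the protein MADF-8 at their promoters. The members were all protein-coding genes of genome build WBcel235 (ce11) whose name is fbxa, fbxb or fbxc followed by a number. There were 322 of them among 19973 protein-coding genes on the 6 nuclear chromosomes, made up of 170 fbxa, 104 fbxb and 48 fbxc genes. The 322 gene identifiers carry 315 symbols, because 11 of them share a symbol with another identifier. MADF-8 was mapped by chromatin immunoprecipitation with sequencing (ChIP-seq) in whole young adult worms at 64 hours, after synchronisation by starvation of newly hatched L1 larvae. The strain, RW12322, carries a CRISPR insertion on chromosome III that fuses TY1, eGFP and 3xFLAG to madf-8, and the immunoprecipitation used an antibody against GFP. The 2 biological replicates, both of that strain and age, form the only group, so no condition is compared with another. Whole animals were used, so a site cannot be placed in a tissue, and a site carried by few cells cannot be told apart from a weak site in many.

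F-box proteins are the exchangeable subunits of SCF ubiquitin ligases. The F-box binds a Skp1-related adaptor, which joins the protein to the cullin, while another part of the F-box protein holds the substrate that is to receive ubiquitin. Nematodes carry far more of these genes than most animals do, many lie in tandem clusters of recent copies, and most single members have no assigned substrate. MADF-8 is named for its MADF domain, which belongs to the wider Myb group and contacts DNA.

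MADF-8 sites were few at the promoters of these families. A gene was called bound when a summit fell in its promoter window, which opens 500 bp before a protein-coding transcript start and closes 100 bp after it, in the list that the authors thresholded from both replicates by the irreproducible discovery rate (IDR). By that rule 6 of 322 members were bound (1.86%, 95% Wilson interval 0.857% to 4%), against 6.97% of all protein-coding genes. The bound members were fbxc-23, fbxc-50, fbxc-44, fbxb-85, fbxa-215 and fbxa-145. The fbxc family, the smallest, held 3 of the 6 among 48 genes (6.25%, interval 2.15% to 16.8%). In fbxa 2 of 170 genes were bound (1.18%, interval 0.323% to 4.19%), and in fbxb 1 of 104 (0.962%, interval 0.17% to 5.25%). The intervals cover counting error over genes only, and the counts are a description, with no test.

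The replicates gave nearly the same members when each was read from its own thresholded list. In replicate 1 the count was 5 members, beside a background of 5.24% of all protein-coding genes. In replicate 2 it was 6 members, beside a background of 6.04%. The member without a thresholded site in replicate 1 was fbxa-145. The other 5 had a thresholded site in the pair, in replicate 1 and in replicate 2, with the scaled IDR score of 1000, its top value, each time.

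The strongest site at a member lay between fbxc-23 and csc-1 on chromosome II, at 13596601 to 13596894. The gene fbxc-23 (13595003 to 13596555) runs on the minus strand and csc-1 (13596955 to 13597947), which encodes a subunit of the chromosomal passenger complex, on the plus strand. The starts are 400 bp apart and the summit, at 13596760, stood 205 bp upstream of fbxc-23 and 195 bp upstream of csc-1. The authors' signal, which gives 1 value to each site and serves here to rank sites inside a list, was 1215.2 in the pair, 557 in replicate 1 and 646 in replicate 2. Of the 1972 sites of the pair 1.06% had a higher signal, so the site is among the strongest in the genome and stands nearly midway between the starts. Its sequence and those of 4 further members are given because they show what stands under the summits. Each line holds the 101 bases centred on the summit, on the minus strand, which is the strand of the member, from the RefSeq sequence of WBcel235. Capitals mark letters that belong to any of the 30 words of 8 bases whose share rose most from unbound promoters to the bound promoters of other genes.
fbxc-23 site, chrII:13596710-13596810: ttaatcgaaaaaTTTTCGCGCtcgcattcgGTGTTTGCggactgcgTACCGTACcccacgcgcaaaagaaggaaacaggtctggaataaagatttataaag
fbxc-50 site, chrII:3248190-3248290: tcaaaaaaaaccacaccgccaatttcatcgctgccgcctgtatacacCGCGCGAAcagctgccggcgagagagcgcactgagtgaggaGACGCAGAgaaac
fbxc-44 site, chrII:4237896-4237996: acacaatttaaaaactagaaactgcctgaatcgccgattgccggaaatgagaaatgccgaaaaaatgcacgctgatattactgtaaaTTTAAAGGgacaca
fbxb-85 site, chrIII:10848968-10849068: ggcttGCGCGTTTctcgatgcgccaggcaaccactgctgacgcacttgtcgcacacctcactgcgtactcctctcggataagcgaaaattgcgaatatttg
fbxa-215 site, chrIV:13667002-13667102: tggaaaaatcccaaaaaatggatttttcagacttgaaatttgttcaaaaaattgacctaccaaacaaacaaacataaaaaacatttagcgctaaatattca

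The other fbxc sites also lay on chromosome II and also between divergent genes. The site of fbxc-50 (gene at 3246316 to 3248123) covered 3248164 to 3248296, with its summit 117 bp upstream of fbxc-50 and 428 bp upstream of C17F4.2. Its signal was 300 in the pair, 133 in replicate 1 and 167 in replicate 2. The site of fbxc-44 (gene at 4236504 to 4237751) covered 4237825 to 4237973, with its summit 195 bp upstream of fbxc-44 and 257 bp upstream of C16A11.2. Its signal was 262 in the pair, 110 in replicate 1 and 154 in replicate 2. Both summits were nearer to the F-box gene than to the partner. In the pair 14.2% of sites were stronger than that of fbxc-50 and 17.6% were stronger than that of fbxc-44, and the median signal of the 1137 promoter sites was 132.

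The only bound fbxb gene was fbxb-85 on chromosome III (10847614 to 10848963). Its site, at 10848880 to 10849155, had its summit 55 bp upstream of fbxb-85, the closest of the 6, and 204 bp upstream of hex-3, which encodes a hexosaminidase. The starts of fbxb-85 and hex-3 are 259 bp apart, and the site covers the annotated start of fbxb-85. The signal was 187 in the pair, 68.7 in replicate 1 and 120 in replicate 2. The summit of replicate 2 stood 40 bp away from that of the pair, while that of replicate 1 coincided with it.

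The fbxa family had the weakest of the 6 sites and the only one that no other gene shares. The site of fbxa-215 (chromosome IV, gene at 13665364 to 13666909) covered 13666914 to 13667189, with its summit 143 bp upstream and no start of another gene of any biotype within its window. Its signal was 153 in the pair, 74.9 in replicate 1 and 77.8 in replicate 2, slightly above the median promoter site. The site of fbxa-145 (chromosome I, gene at 5319712 to 5321151, plus strand) covered 5319446 to 5319721, with its summit 128 bp upstream of fbxa-145 and 283 bp upstream of F48C1.6. Its signal was 86.6 in the pair, 34.3 in replicate 1 and 49.8 in replicate 2, and 74.1% of the sites of the pair were stronger. In replicate 1 its score was 42 and it was not in that replicate's thresholded list, whereas in replicate 2 the score was 1000. The lowest score of the pair's thresholded list was 830, and that of the list of replicate 1 is not given here. It is the least supported of the 6, although all 6 were also in the list that the authors named conservative.

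**Figure D1:**
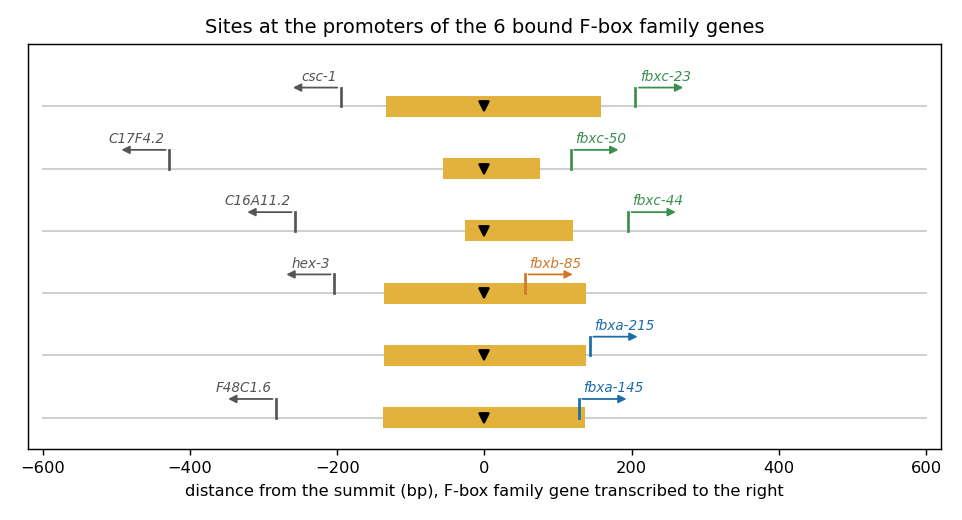
Maps of the 6 sites, each centred on its summit (triangle), with distance from the summit in bp on the horizontal axis and the F-box family gene drawn to the right. Bars are the deposited sites, coloured arrows mark the starts of the members and grey arrows those of the other genes in the window. The summits stand 55 to 205 bp upstream of the members, and fbxa-215 has no partner.

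**Figure D2:**
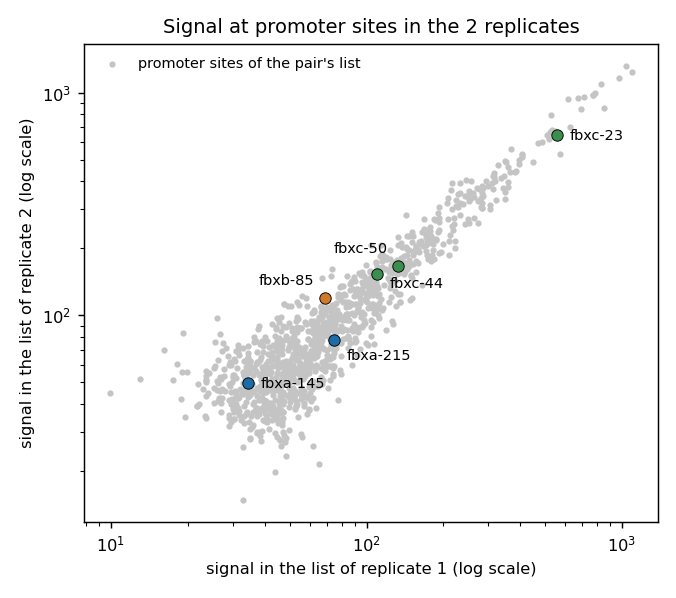
Signal of promoter sites matched in the ranked lists of replicate 1 (horizontal) and replicate 2 (vertical), both on log scales, with the 6 bound members in colour (green for fbxc, orange for fbxb, blue for fbxa) and the other promoter sites in grey. The site of fbxc-23 stands at 557 and 646, near the top, and that of fbxa-145 at 34.3 and 49.8, among the weak sites.

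Most of these sites lay in the promoter window of a neighbour as well as in that of the F-box gene. Of the 6 bound members 5 shared their only site with a gene outside the families, transcribed away from it (83.3%). Over all 1392 bound protein-coding genes the share with no site of their own was 590 (42.4%). In 4 of the 5 shared sites the summit was nearer to the member's start, the exception being fbxc-23. The sharing depends on the width of the window. With 200 bp upstream in place of 500 bp, 5 members were bound and all 5 by a site that no other gene shared, and with 1000 bp upstream and 200 bp downstream 3 of 9 were. Which of the divergent genes a site serves was not tested, since the lists hold positions and no expression.

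Neighbours close enough to share a site were counted among all protein-coding genes, other members included. The promoter window of 85 members (26.4%) met the window of another protein-coding gene, against 4130 of 19651 genes outside the families (21%). Some of the 85 met another member, such as fbxa-26 and fbxa-27, whose starts lie 447 bp apart. How many met a gene outside the families was not counted. Among genes with such a neighbour 5 of 85 members were bound (5.88%, interval 2.54% to 13%) and 728 of 4130 others (17.6%). Among genes without one, 1 of 237 members was bound (0.422%, interval 0.0745% to 2.35%) and 658 of 15521 others (4.24%). The share of members was the lower in both classes.

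Genes near the families were bound about as often as genes in general. Of 694 protein-coding genes outside the families with a start within 10 kb of a member's start, 46 were bound (6.63%, interval 5.01% to 8.73%). Without the 5 genes that share a site with a member the count was 41 of 689 (5.95%, interval 4.42% to 7.97%). The sites themselves were sparser there, with a median distance from a start to the nearest summit of 48329 bp for members, 33313.5 bp for these neighbours and 21010 bp for all genes outside the families. A summit lay within 10 kb of 52 members (16.1%) and of 6429 other genes (32.7%). The quartiles of the members' distances were 17100.8 bp and 103610.2 bp.

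**Figure D3:**
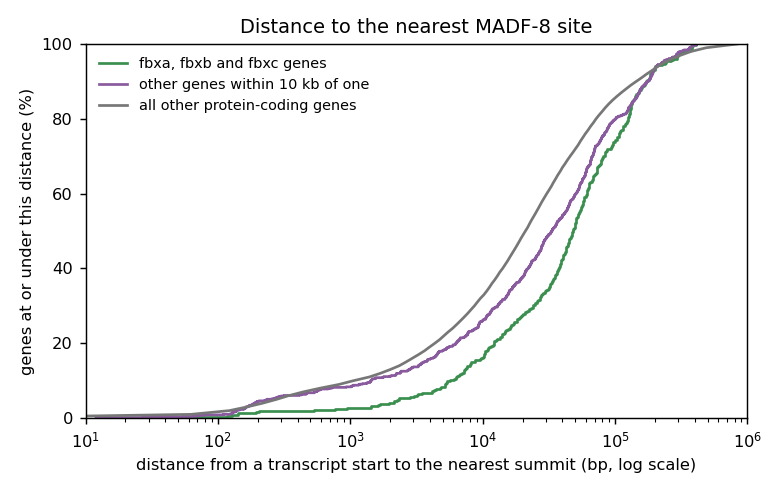
Share of genes (percent, vertical) whose transcript start lies at or under a given distance from the nearest summit (bp, log scale) for the F-box family genes, the other genes within 10 kb of one and all other protein-coding genes. At 10 kb the curves stand at 16.1% for the families and 32.7% for all other genes, and at that distance the neighbours stand between them.

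The chromosomes divide the families unequally. The fbxa genes lie mainly on V (71 genes) and III (60), the fbxb genes mainly on II (58), and the fbxc genes only on II (35) and IV (13). On chromosome II, where 107 members lie, 3 were bound (2.8%) against 8.89% of other genes. On chromosome V, with 87 members, 0 were bound, which leaves an upper Wilson limit of 4.23%, against 4.93% of other genes. On III it was 1 of 68 members (1.47%) against 11.7%, on IV 1 of 27 (3.7%) against 6.67% and on I 1 of 16 (6.25%) against 10.7%. On X, where 0.774% of other genes were bound, 0 of 17 members were, a number too small to tell apart from the rate of the other genes. With each chromosome divided into 3 parts of equal length, 314 members lay in the outer parts, the arms, where 5 were bound (1.59%) against 6.68% of other genes. The middle parts held 8 members, of which 1 was bound (12.5%, interval 2.24% to 47.1%), against 7.65% of other genes, so the lower share of members was seen in the arms.

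**Figure D4:**
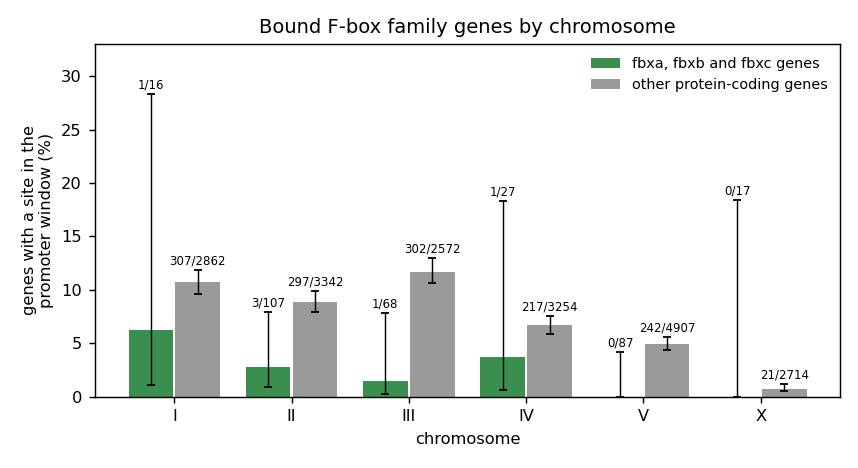
Percent of genes with a site in the promoter window on each chromosome, for the F-box family genes (green) and other protein-coding genes (grey), with 95% Wilson intervals and the counts above each bar. The bars of the families stand under those of other genes on every chromosome, and their intervals are wide on I, IV and X, which hold 16, 27 and 17 members.

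Most of the bound members stood alone and none in a large array. When members whose starts lie at most 20 kb apart were joined into clusters, 84 members had no other member in reach and 5 of these were bound (5.95%, interval 2.57% to 13.2%), a share near the 6.97% of all protein-coding genes. In clusters of 2 to 4 members 1 of 96 was bound, fbxc-44, whose neighbour is fbxc-43. In clusters of 5 or more, which hold 142 members (44.1%) and reach 26 genes, 0 were bound, with an upper limit of 2.63%. With a gap of 10 kb the number of bound members that stand alone was again 5, but with 50 kb it was 2, so the statement holds for short gaps. Both of these gaps were chosen after seeing the data.

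Recent copies limit what short reads can show, because reads from a repeated sequence have no single place in the genome. The share of words of 31 bases found once in the genome was taken over the 601 bases of each promoter window. Its median was 99.5% for members (quartiles 89% and 100%) and 100% for other genes. The whole window was unique in 150 members (46.6%) and in 14871 other genes (75.7%), while 26 members (8.07%) and 631 other genes (3.21%) were under 50%. Of those 26, 12 were fbxc genes, which is 25% of that family, 12 were fbxa genes and 2 were fbxb genes. No word was unique in 14 members, among them fbxa-208, fbxc-12, fbxc-40 and the 11 genes named fbxa-41, fbxc-4, fbxc-5 and fbxc-8. Reads of 31 bases have no unique place in these windows, and 0 of the 14 had a candidate, as had 0 of 224 other genes of that kind.

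The low share of bound members was also seen where the sequence is unique. Among genes with a wholly unique window 4 of 150 members were bound (2.67%, interval 1.04% to 6.66%) against 1114 of 14871 other genes (7.49%). Among those unique in part, at 50% or more, it was 2 of 146 (1.37%) against 255 of 4149 (6.15%). Of the 6 bound members fbxc-23, fbxb-85, fbxa-215 and fbxa-145 had a wholly unique window, and the values of fbxc-50 and fbxc-44 were 99.8% and 85.1%. The split by uniqueness was chosen after seeing the data.

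Under the threshold lay a longer tail of weak candidates. The ranked list of the pair holds 32380 candidates before thresholding, and 57 members (17.7%) had one in the promoter window, beside a background of 26.8% of all protein-coding genes. By family these were 32 of 170 fbxa genes (18.8%), 15 of 104 fbxb genes (14.4%) and 10 of 48 fbxc genes (20.8%). In 204 members (63.4%) no candidate appeared in the ranked list of the pair or of either replicate. The same share over all protein-coding genes is not given here, so the 63.4% cannot be set against a background. Of the 316 unbound members 51 had a candidate in the pair, and 17 of these also had one in each replicate, again with no background for the 17. Their median score was 50, near the 54.5 of unbound genes outside the families, and 15 of the 51 reached a score of 100.

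The bound member with the weakest signal, fbxa-145, had the capped score of 1000 in the pair, as had every bound member. The unbound member with the highest score, fbxa-101 on chromosome I, had 746. The scores of fbxa-101 were 164 in replicate 1, above the 42 of fbxa-145, and 243 in replicate 2. Its signals were 66.4 in the pair, 24.9 in replicate 1 and 36.8 in replicate 2, against 86.6, 34.3 and 49.8 for fbxa-145. Next came fbxa-210 on chromosome V, with scores of 638, 162 and 222 and signals of 66, 34.1 and 28. Both had a candidate in every list and passed the threshold in none. The gene fbxb-60 had a score of 493 in the pair and 545 in replicate 1 but no candidate in replicate 2. For fbxa-188 the scores were 297 and 192, again with none in replicate 2, and for fbxb-38 they were 258 in the pair, 14 in replicate 1 and 65 in replicate 2. After these 5 came fbxa-197 with 182 in the pair, and the lowest score was 23.

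**Figure D5:**
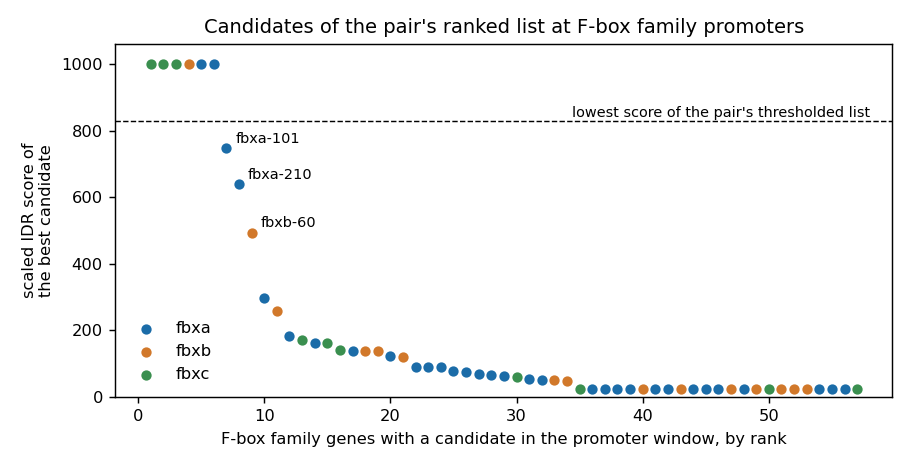
Scaled IDR score of the best candidate in the promoter window for the 57 members that have one in the ranked list of the pair, sorted by score, with fbxa in blue, fbxb in orange and fbxc in green. The 6 bound members stand at 1000, the dashed line is the lowest score of the thresholded list, 830, and fbxa-101 at 746 is the nearest member under it.

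Some members missed the call by distance and not by score. The summit nearest to an unbound member was 532 bp upstream of fbxa-111 on chromosome V, at a site (16950175 to 16950297) with no protein-coding start in its window. Its signal was 226 in the pair, 60 in replicate 1 and 164 in replicate 2, with a score of 1000 in each. It was stronger than the sites of both bound fbxa genes in the pair and in replicate 2, while in replicate 1 that of fbxa-215 was stronger, at 74.9. The next were fbxa-83 on IV, 761 bp upstream with signal 87.8, and fbxa-90 on V, 941 bp upstream with signal 95.7 at the promoter of efl-1, which encodes an E2F transcription factor. Among the bound members the farthest summit was that of fbxc-23, at 205 bp. A site at 1624 bp upstream of fbxa-214 had signal 103. Within the bodies of the 322 genes there was 1 summit of 1972, that of a site at V 15397268 to 15397543 with signal 95, which lies 21 bp inside the 3′ end of fbxa-199. The same count for other gene bodies is not given here, so this number cannot be set against a background.

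The fbxc-44 site was the only one of the 6 whose sequence recurs at other members. Its 101 bases aligned to a stretch of the fbxc-45 promoter with 96.8% identity over 95 bases, and to one of the fbxc-43 promoter with 91.9% over 62 bases, and the summit lies within both alignments. The 3 proteins are close relatives, with 65.6% identity between fbxc-44 and fbxc-45 over 273 residues and 78.7% between fbxc-44 and fbxc-43 over 183. The stretches are printed on the minus strand of WBcel235, the strand of both genes, with capitals for letters that differ from fbxc-44.
fbxc-45 stretch, chrIV:2922387-2922481: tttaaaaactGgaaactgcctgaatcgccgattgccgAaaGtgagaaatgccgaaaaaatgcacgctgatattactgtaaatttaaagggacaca
fbxc-43 stretch, chrII:4236143-4236204: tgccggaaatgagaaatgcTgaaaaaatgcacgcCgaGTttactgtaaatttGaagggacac
Neither relative was bound. The candidate of fbxc-45 had a score of 170 in the pair, 128 in replicate 1 and 348 in replicate 2, with signals of 54.8, 21.6 and 33.6. That of fbxc-43 had scores of 58, 132 and 62 and signals of 49.5, 38.9 and 18.4. In each list the candidate is the one with the highest score anywhere in the promoter window. Whether it lies on the aligned stretch was not checked. The signal of fbxc-44, 262 in the pair, stands well above those of both relatives. Of the words of 31 bases in the fbxc-44 site 47 of 71 (66.2%) were unique in the genome, and in the fbxc-45 stretch 41 of 65 (63.1%). In the fbxc-43 stretch 32 of 32 were. The other 5 site sequences were unique in 71 of 71 words. How the authors placed reads that match more than 1 locus is not given in the sources used here, so how far fbxc-44 and fbxc-45 draw on each other's reads was not tested.

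The relatives of the bound members were ranked by protein similarity and at most 3 were read for each. None of these was bound, beside 1.86% over all members, and so few genes cannot be told apart from that share. The closest relatives of fbxc-23 among the members, at an E value of 0.001 or less, were fbxc-22 (30.3% identity over 119 residues), fbxc-21 and fbxc-54, and no further member matched it. For fbxc-50 they were fbxc-47 (28.3%), fbxc-45 and fbxc-39, and fbxc-47 was also close to fbxc-44 (51.5% over 301 residues). For fbxb-85 they were fbxb-87 (40.8%), fbxb-81 and fbxb-82. For fbxa-215 they were fbxa-194 (28.9%), fbxa-189 and fbxa-185, and fbxa-145 matched fbxa-150 alone (41.4% over 70 residues). By comparison the median identity to the best relative was 45.9% in fbxa, 41.9% in fbxb and 48.9% in fbxc, and of the 6 bound members only fbxc-44 was above the median of its family.

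The letters under the summits were set beside those that lead at other promoters. At the 1131 promoter sites with no member in the window, the 6 words of 8 bases with the largest rise over unbound promoters were AAGGCGCA, AAAGGCGC, GCGAGACC, GCCTTTAA, CGAGACCC and CGCCTTTA, with both strands read and 50 bp taken on each side of the summit. AAGGCGCA, AAAGGCGC, CGCCTTTA and GCCTTTAA overlap one another when read on both strands, as do GCGAGACC and CGAGACCC. At least 1 of the 6 was present at 273 of those sites (24.1%) and in 247 of 18265 windows at unbound promoters (1.35%). In the 101 bases at the summit 0 of the 6 member sites held any, and most of the other promoter sites held none either. With the 30 leading words, those in capitals in the sequences above, the counts were 772 sites (68.3%), 1794 unbound windows (9.82%) and 5 of 6 member sites, all but fbxa-215. Both sets of words were chosen on these same 1131 sites and 18265 windows. The gap between their shares there follows from that choice and is no separate evidence.

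Single words recur among the members and at other sites. GTACGGTA, in either strand, is in the sites of fbxc-23 and fbxa-145, at 65 other promoter sites (5.75%) and in 0.427% of unbound windows. AGACGCAG and GAGACGCA, which overlap, are in the sites of fbxc-50 and fbxa-145, and AGACGCAG is at 5.22% of other sites and in 1.2% of unbound windows. ACGCGCAA is in the sites of fbxc-23 and fbxb-85 and at 3.45% of other sites against 0.443% of unbound windows. TTTAAAGG, at the edge of the fbxc-44 site and kept in the fbxc-45 stretch, is the reverse of a word found at 9.11% of other sites and in 1.01% of unbound windows. Not every word held by 2 member sites was commoner at other sites than in unbound windows. AAAAAATG, in the sites of fbxa-215 and fbxc-44, is at 5.13% of other sites and in 6.01% of unbound windows. For TCAAAAAA, in the sites of fbxa-215 and fbxc-50, the shares were 4.24% and 6.59%. These words were picked after seeing the data and are a description of the letters, not of binding. The site of fbxa-215 was also apart in base composition, with 26.7% G and C, against a median of 43.6% (quartiles 38.6% and 49.5%) at other promoter sites. The other member sites ran from 37.6% at fbxc-44 to 56.4% at fbxc-50. Over whole promoter windows the median was lower than at the sites, at 35.4% for members (quartiles 32.3% and 38.9%) and 34.6% for other genes.

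Words of the leading kind were present at unbound members too. Over the 601 bases of the promoter window at the gene's first start, at least 1 of the 6 words was found in 17 members (5.28%) and in 1628 other genes (8.28%). All 6 were found in 1 member, fbxc-43, from position -333 to -120 relative to its start, and 2 of the 6 in fbxc-44, from -127 to -119. How many other genes hold all 6 is not given here. Because the words overlap, the 6 of fbxc-43 make up only 2 short stretches, and the 2 of fbxc-44 a single one. The words of fbxc-44 lie inside its deposited site, although not within the 101 bases at the summit. The fbxc-43 stretch is printed because it carries every leading word at a promoter that was not called, with the words in capitals, on the minus strand of WBcel235. It includes the stretch of fbxc-43 shown above.
fbxc-43 promoter, chrII:4236106-4236339: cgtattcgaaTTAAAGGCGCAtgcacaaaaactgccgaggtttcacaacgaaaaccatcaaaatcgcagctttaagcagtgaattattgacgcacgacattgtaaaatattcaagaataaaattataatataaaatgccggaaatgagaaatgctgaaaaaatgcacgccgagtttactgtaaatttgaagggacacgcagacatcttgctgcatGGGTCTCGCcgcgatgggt
The strong site near fbxa-111 is printed in the same way, with the words of the list of 30 in capitals, since it passed the threshold just beyond the window.
fbxa-111 upstream site, chrV:16950191-16950291: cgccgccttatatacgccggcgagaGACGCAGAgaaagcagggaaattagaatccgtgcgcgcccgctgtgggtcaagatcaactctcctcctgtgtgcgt
This sequence has 58.4% G and C and aligned to 8 other sites of the pair, with 75.3% to 89.2% identity over 67 to 82 bases. None of the 8 lay in the window of a protein-coding gene, and their signals ran from 204 to 1021.4. The 101 bases were unique in 71 of 71 words, although the promoter window of fbxa-111 itself was unique in only 38.9% of its words. The member sites had 0 to 2 such matches each.

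Genes that act with F-box proteins were read from the same list of sites, by which 6.97% of all protein-coding genes were bound. Each gene set named here is small, and its upper limit lies above that share. The SCF core, the cullin cul-1, the RING protein rbx-1 and the Skp1-related skr genes, had 0 of 22 genes bound, which leaves an upper limit of 14.9%. Of 12 genes of cullin neddylation and the COP9 signalosome, which switch the ligase on and off, 0 were bound, with an upper limit of 24.2%. Of 10 other F-box genes 2 were bound (20%, upper limit 51%). The site of skpt-1, a relative of the mammalian SKP2, had a signal of 735 with its summit 16 bp downstream of the start. That of prom-1, an F-box gene of meiotic chromosome pairing, had a signal of 298 with its summit 169 bp upstream, and neither was shared. Of 5 fbxl genes, whose products pair the F-box with leucine-rich repeats, 1 was bound (20%, interval 3.62% to 62.4%). This was fbxl-2, with signal 273 and a summit 57 bp upstream. The MATH and BTB genes, another expanded group, part of which encodes substrate adaptors of a different cullin, had 3 of 90 bound (3.33%, interval 1.14% to 9.35%). These were bath-36 with signal 161, bath-44 with 172 and btb-20 with 133, and the sites of bath-36 and btb-20 were shared with cyn-7 and pot-2. Against these, the site of fbxc-23 had the highest signal of any gene named here from the F-box, SCF and MATH-BTB lists, but it is shared with csc-1.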

How the data were processed

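Sites came from the lists deposited for each replicate and for the pair, on assembly ce11 per the labels. The authors deposited for each site a scaled IDR score, whose top value is 1000, and a signal, 1 value per site with no SD. Not given in the sources used here are the aligner, the peak caller, the scaling of the signal and the library depths. The control file was not analysed here. The thresholded list of the pair held 1972 sites, that of replicate 1 1347 and that of replicate 2 1608. The 8 columns per replicate in the ranked list of the pair name no sample and were left out. Genes and starts came from Ensembl release 115 on WBcel235. Windows, shared starts, 95% Wilson intervals, 31-base uniqueness and 8-base words were computed with Python 3.11.15, numpy 2.4.6, pandas 2.3.3 and scipy 1.17.1. Unbound windows for words were centred 181 bp upstream of the gene start. Proteins were translated from the annotated coding sequence with biopython 1.88 and compared, like the site sequences, with BLAST 2.17.0. Figures were drawn with matplotlib 3.10.9. The window assignment was tested on simulated data. Members, lists and words were chosen with earlier results of these data known. Named genes are the bound members and the genes that share their sites, the 5 unbound members with the highest candidate score, the 5 nearest to a summit, members with the least unique promoters, bound genes of the lists and the closest relatives of bound members. The words recurring among members and fbxc-43 were chosen after their values were seen. No test was run on the members.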

Additional observations from a re-analysis of the deposited data

How the results depend on the processing

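Across the alternatives the count of bound members ran from 5 to 9. It stayed at 6 with the conservative list, with the gene's first start only and with ranked candidates at or above the lowest score. It was 5 with the stronger sites (at or above the median signal), where fbxa-145 was lost, and with the 200 bp window or the nearest start only, where fbxc-23 was lost. It was 7 with any overlap of a site with the window, which added fbxa-111, and 9 with a window from 1000 bp before the start to 200 bp after it, which added fbxa-83 and fbxa-90 as well. Leaving out a replicate gave 5 to 6 bound members, 1 to 2 bound fbxa genes and 5.24% to 6.04% of all protein-coding genes, and fbxa-145 was the member lost without replicate 2. Members bound by an unshared site, 1 in the report, were 3 with the 1000 bp window, 5 with the 200 bp window and 2 with any overlap. Bound fbxa genes were 1 with the stronger sites and 5 with the 1000 bp window. The share of all protein-coding genes was 4.13% with the stronger sites, 8.82% with the 1000 bp window, 3.56% with the 200 bp window, 7.64% with any overlap, 5.53% with the nearest start only and 6.51% with the gene's first start. The matching shares of members were 1.55%, 2.8%, 1.55%, 2.17%, 1.55% and 1.86%, each below that of all genes. The cause of these shifts beyond the change of window or list was not tested. No paired analysis was possible because both replicates belong to 1 group. The depth of the libraries is unknown, so a promoter without a site was not shown to lack MADF-8.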
